A study of Mus musculus with 10 samples.

Results

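The GABA-A receptor subunit genes examined here were Gabra2, Gabra3, Gabra4, Gabra5, Gabrb1, Gabrb2 and Gabrd. These 7 genes were chosen by symbol among the 24421 genes of the expression table, and all 7 passed the filter on low values (a mean of at least 0.5 CPM, reads per 1000000 reads counted on genes), which left 15081 genes for testing. Expression was measured by RNA-seq of the ventral hippocampus (vHpc) of ovariectomized (OVX) young adult female C57BL/6 mice. WT mice carried the wild-type brain-derived neurotrophic factor gene, Bdnf, and Het-Met mice were heterozygous for the BDNF Val66Met knock-in allele. After 2 weeks of recovery from surgery, mice drank for 6 weeks either 17β-estradiol (E2, 300 nM in 0.1% ethanol, about 0.7 µg per day) or the 0.1% ethanol vehicle. Every group was therefore ovariectomized and received ethanol, and no group had intact ovaries. Each library was made from the pooled RNA of 2 animals. Of the 10 libraries, 4 came from OVX WT mice, with 2 under vehicle (replicates 1 and 3) and 2 under E2 (replicates 1 and 2). The other 6 came from OVX Het-Met mice, with 3 under each treatment. The methods state 3 biological replicates per group, so each OVX WT group here holds fewer than stated. The labels give the strain as C57BL/6 for all groups and name no substrain. Substrains of C57BL/6 are known to differ in Gabra2 expression, and whether WT and Het-Met mice carried the same Gabra2 haplotype was not tested, so a difference of Gabra2 between genotypes cannot be told apart from a difference of background at that gene.

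GABA-A receptors are ligand-gated chloride channels that carry most fast inhibition in the brain. Each channel is a ring of subunits, usually α and β subunits together with a γ or a δ subunit, and GABA binds between α and β. The α subunit sets much of the pharmacology and location: receptors with α2 are enriched at synapses, including those on the axon initial segment of pyramidal cells, receptors with α5 are abundant in the hippocampus and largely extrasynaptic, and receptors with δ, often with α4, carry tonic inhibition and are sensitive to neurosteroids derived from progesterone.

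Gabra2 stood apart from the other 6 subunit genes. Its level in the Het-Met genotype was 1.45-fold that in WT over both treatments and 1.53-fold under E2, and it was the only one of the 7 genes that limma called in any of the 7 comparisons. Both calls were lost under some alternative settings, given beside the tests. E2 add-back called none of the 7 genes in either genotype, where it called 0.0133% of all genes in WT and 0.00% in Het-Met mice (limma). These are tissue levels, in which fewer cells of a type and less RNA per cell cannot be told apart.

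Libraries held 19820184 to 23267410 reads on genes, so that 1 read stood for 0.0430 to 0.0505 CPM. The least counted of the 7 genes in any library was Gabrb1 with 315 reads, and Gabra2 had between 1348 and 2239 reads, far above the floor of 3 reads. Replicates within a group differed beyond sampling noise (chi-square per degree of freedom 3.40 to 14.1). The summed level of 8 neuron markers was 14366 to 14678 CPM in OVX WT and 13962 to 14819 CPM in OVX Het-Met libraries. Markers of CA1, CA3 and CA2, dentate gyrus granule cells, interneurons, astrocytes, oligodendrocytes and microglia were all detected, and no marker in any of these lists was at 0 in every library. Choroid plexus markers, which are not hippocampal, varied most: their summed level was 361 to 1626 CPM in vehicle-treated and 2755 to 3705 CPM in E2-treated OVX WT libraries, and 2137 to 4119 CPM in vehicle-treated and 534 to 2294 CPM in E2-treated OVX Het-Met libraries. Thalamus markers summed to 153 to 227 CPM. Bdnf itself was at 34.7 to 45.2 CPM in OVX WT and 31.7 to 38.4 CPM in OVX Het-Met libraries, a level that does not show which allele was transcribed.

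Gabra2, Gabra4 and Gabrb1 lie in one cluster of subunit genes on chromosome 5 of mm10, next to the γ subunit gene Gabrg1. Gabra2 runs on the minus strand (chr5:70957597-71095849). Gabra4 (chr5:71569749-71658308) is also on the minus strand, and Gabrb1 (chr5:71658113-72149037) is on the plus strand, so that they are transcribed away from each other. Their annotated exons overlap by 46 bases. The other members lie elsewhere: Gabra3 on chromosome X (chrX:72432681-72656848, minus strand), Gabra5 on chromosome 7 (chr7:57407672-57510059, minus strand), Gabrb2 on chromosome 11 (chr11:42419757-42629028, plus strand) and Gabrd on chromosome 4 (chr4:155384980-155398112, minus strand). Exons of Gabra5 overlap the antisense gene Gm9962 by 148 bases. The library kit was stranded, but whether the counting used strand is not given in the sources used here, so reads in these overlaps cannot be assigned with certainty. The overlaps are short beside exon lengths of 2974 to 13838 bases for Gabra5, Gabra4 and Gabrb1.

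The 250 bases before a start site of the 3 clustered members are shown because Gabra2 and both other members that lie in its cluster can then be read side by side. The sequences are from RefSeq (GRCm38.p6), 5′ to 3′ on the strand of the gene, with capitals marking each match to CCGCCC, the GC box, on either strand. The windows are chr5:71095850-71096099 (minus strand) for Gabra2, chr5:71658309-71658558 (minus strand) for Gabra4 and chr5:71657671-71657920 (plus strand) for Gabrb1. The gene positions above are from GENCODE, whose start of Gabrb1 (71658113) differs from that of RefSeq, so this window does not reach it. The Gabrb1 window lies inside the Gabra4 gene, and the Gabra4 window inside the Gabrb1 gene.
Gabra2: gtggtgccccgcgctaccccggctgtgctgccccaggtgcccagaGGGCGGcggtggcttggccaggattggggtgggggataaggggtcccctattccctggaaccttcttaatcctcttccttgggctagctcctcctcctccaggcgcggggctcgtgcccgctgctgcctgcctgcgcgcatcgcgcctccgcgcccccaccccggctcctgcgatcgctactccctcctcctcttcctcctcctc
Gabra4: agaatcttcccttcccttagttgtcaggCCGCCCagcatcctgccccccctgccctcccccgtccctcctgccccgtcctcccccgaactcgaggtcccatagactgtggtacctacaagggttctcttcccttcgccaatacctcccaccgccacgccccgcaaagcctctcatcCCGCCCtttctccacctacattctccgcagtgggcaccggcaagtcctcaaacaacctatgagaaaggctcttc
Gabrb1: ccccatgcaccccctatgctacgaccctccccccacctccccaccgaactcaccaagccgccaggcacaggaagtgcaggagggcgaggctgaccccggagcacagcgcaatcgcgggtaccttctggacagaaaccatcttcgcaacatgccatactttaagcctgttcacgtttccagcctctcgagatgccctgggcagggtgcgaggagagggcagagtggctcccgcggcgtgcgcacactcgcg
The windows were rich in G and C (70.0%, 61.2% and 64.4% for Gabra2, Gabra4 and Gabrb1, against a median of 52.4% over 32851 promoter windows of the same length). CpG dinucleotides numbered 18, 12 and 18, against a median of 6. The GC box was found once in the Gabra2 window, at 2 places in that of Gabra4 and not in that of Gabrb1, and 32.7% of all windows held it. The cAMP response element TGACGTCA (1.55% of all windows), the estrogen response element (half-sites GGTCA and TGACC with 3 bases between them, 0.0639%) and the TATA box TATAAA (12.4%), each searched on both strands, were in none of the 3 windows. RefSeq gives Gabrb1 another start inside the gene, whose window (chr5:71699682-71699931, plus strand, not printed) was not rich in G and C (50.8%, with 6 CpG). These are matches of letters and say nothing of binding. A RefSeq promoter was matched for 6 of the 7 members, all but Gabrd.

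The subunit genes differed widely in level. CPM were divided by the summed exon length of each gene in kb, since levels of different genes can be compared only per length. Gabra5 was highest at 70.7 ± 3.85 CPM per kb (SD over the 10 libraries, range 65.4 to 77.7), followed by Gabrb2 at 47.2 ± 4.31 (41.4 to 54.5), Gabra3 at 33.5 ± 3.79 (25.5 to 39.9) and Gabra4 at 19.0 ± 1.29 (16.4 to 21.2). Gabra2 came next at 11.1 ± 2.22 CPM per kb (7.95 to 13.5), above Gabrd at 7.90 ± 1.11 (6.49 to 9.61) and Gabrb1 at 1.50 ± 0.298 (1.08 to 2.04). Of neighbours in this order, only the ranges of Gabra2 and Gabrd overlapped, and within each of the 10 libraries Gabra2 was higher, by 1.09 to 2.05 times. With the longest annotated transcript in place of all exons the order of the members was the same, but the neighbours that overlapped were others. The ranges of Gabra5 (mean 78.8 CPM per kb) and Gabrb2 (75.2 CPM per kb) then overlapped, as did those of Gabra3 (27.3 to 42.7) and Gabra4 (24.3 to 31.3), while those of Gabra2 (10.4 to 17.6) and Gabrd (6.90 to 10.2) did not.

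**Figure D1:**
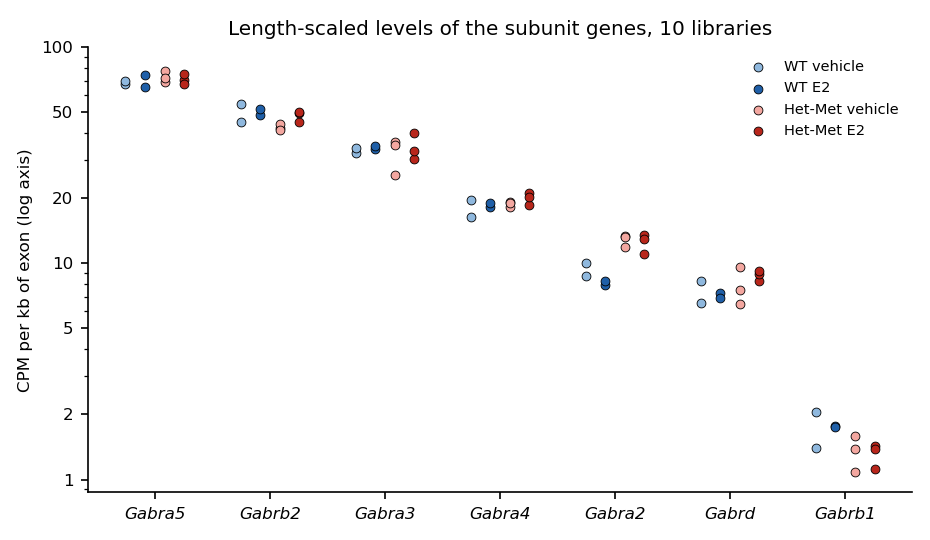
Level of each subunit gene in CPM per kb of exon (logarithmic axis), 1 point per library, coloured by group, genes ordered by mean. Gabra5 lies between 65.4 and 77.7 and Gabrb1 between 1.08 and 2.04, and the Het-Met points of Gabra2 (red) lie above its WT points (blue).

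Gabra2 encodes the α2 subunit. In OVX WT mice its level was 77.0 and 66.8 CPM under vehicle (71.9 ± 7.23, SD, n = 2) and 60.8 and 63.4 CPM under E2 (62.1 ± 1.87, SD, n = 2). In OVX Het-Met mice it was 103, 102 and 91.1 CPM under vehicle (98.4 ± 6.39, SD, n = 3) and 84.3, 103 and 98.7 CPM under E2 (95.4 ± 9.87, SD, n = 3). The lowest Het-Met library (84.3 CPM) was above the highest WT library (77.0 CPM), so the genotypes did not overlap. Such separation with Het-Met higher was seen in 397 of the 15081 genes tested (2.63%), and Gabra2 was the only one of the 7 subunit genes without overlap in either direction, where 4.36% of all genes had none.

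**Figure D2:**
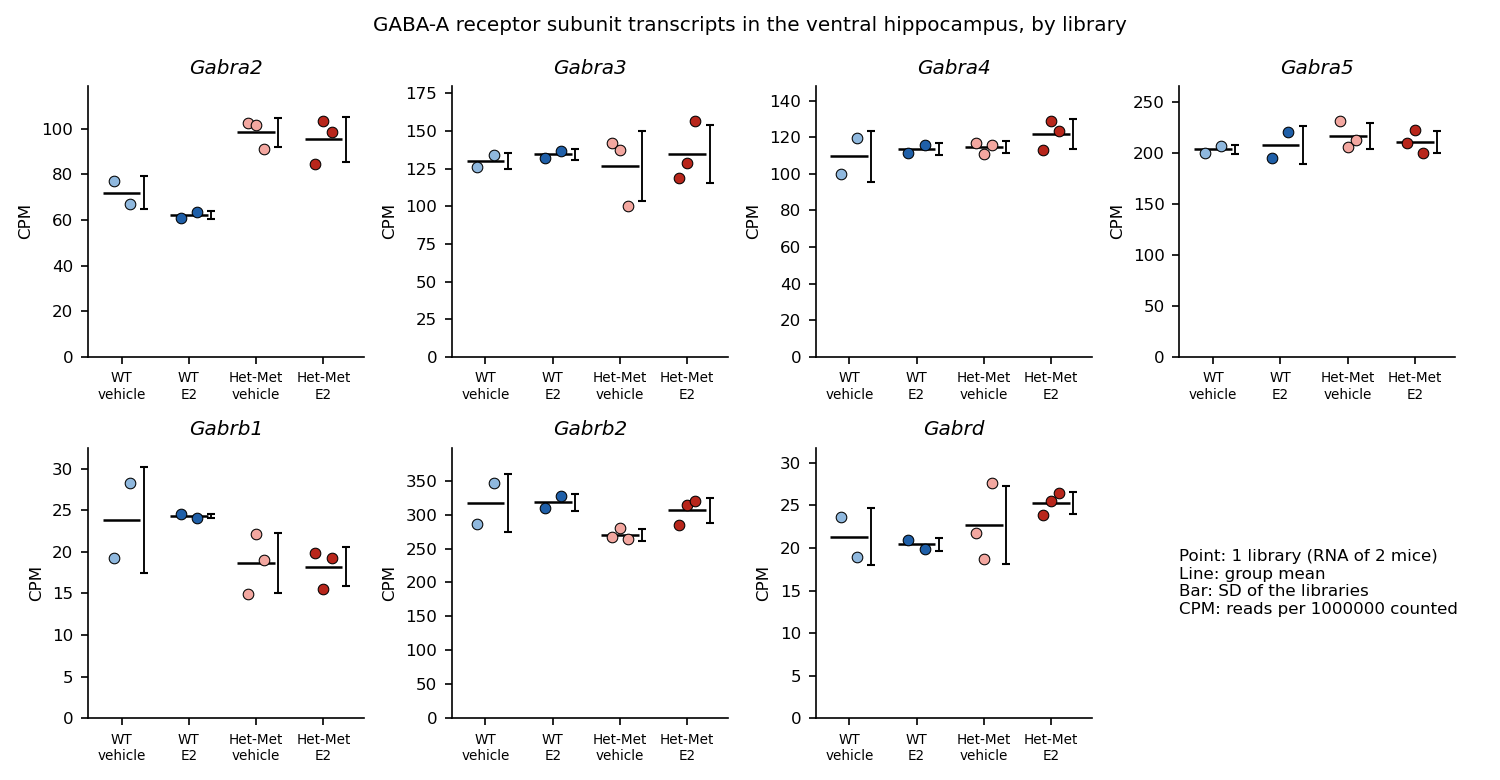
CPM of the 7 subunit genes in each of the 10 libraries by group, with the group mean as a line and the SD of the libraries as a bar, every axis starting at 0. For Gabra2 the 6 Het-Met libraries (84.3 to 103 CPM) lie above the 4 WT libraries (60.8 to 77.0 CPM), and for the other 6 genes the genotypes overlap.

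Genotype differences were tested with limma on log2(CPM + 0.5) in one model of the 4 groups, with p-values adjusted over all 15081 genes, and a call required both an adjusted p-value under 0.05 and more than a 1.3-fold difference. Over both treatments Gabra2 was higher in OVX Het-Met mice by 0.53 on the log2 scale (SE 0.07, 95% interval 0.39 to 0.67, adjusted p = 0.00453, limma), the third smallest p-value of all genes, in a comparison that called 0.0265% of them. This call was lost without the filter on low values (adjusted p = 0.0541, limma) and without the intensity trend of the fit (adjusted p = 0.158, limma). Under E2 the log2 difference was 0.61 (SE 0.09, interval 0.41 to 0.81, adjusted p = 0.0418, limma), in a comparison that also called 0.0265%, and that call was lost in 5 alternative fits (adjusted p = 0.0544 to 0.997, limma). Under vehicle it was 0.45 (SE 0.09, interval 0.25 to 0.65) and did not pass after adjustment (unadjusted p = 2.35e-04, adjusted p = 0.215, limma), where 0.00663% of genes were called. The genotype difference under E2 was not shown to exceed that under vehicle (interaction 0.16, SE 0.13, interval -0.12 to 0.44, adjusted p = 0.9998, limma).

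The call of Gabra2 under E2 rested on several libraries. Without E2-treated WT replicate 1 or 2, which left that group with a single library assumed to vary like the others, the adjusted p was 0.698 and 0.379 (limma). It was 0.168 and 0.120 without E2-treated Het-Met replicate 2 or 3, and 0.0511 and 0.0630 without vehicle-treated Het-Met replicate 1 or 2, while the log2 difference stayed between 0.55 and 0.70. Over both treatments the difference stayed between 0.48 and 0.58, and the call was lost without vehicle-treated WT replicate 3 (adjusted p = 0.0524, limma) or E2-treated WT replicate 1 (adjusted p = 0.0797, limma).

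**Figure D3:**
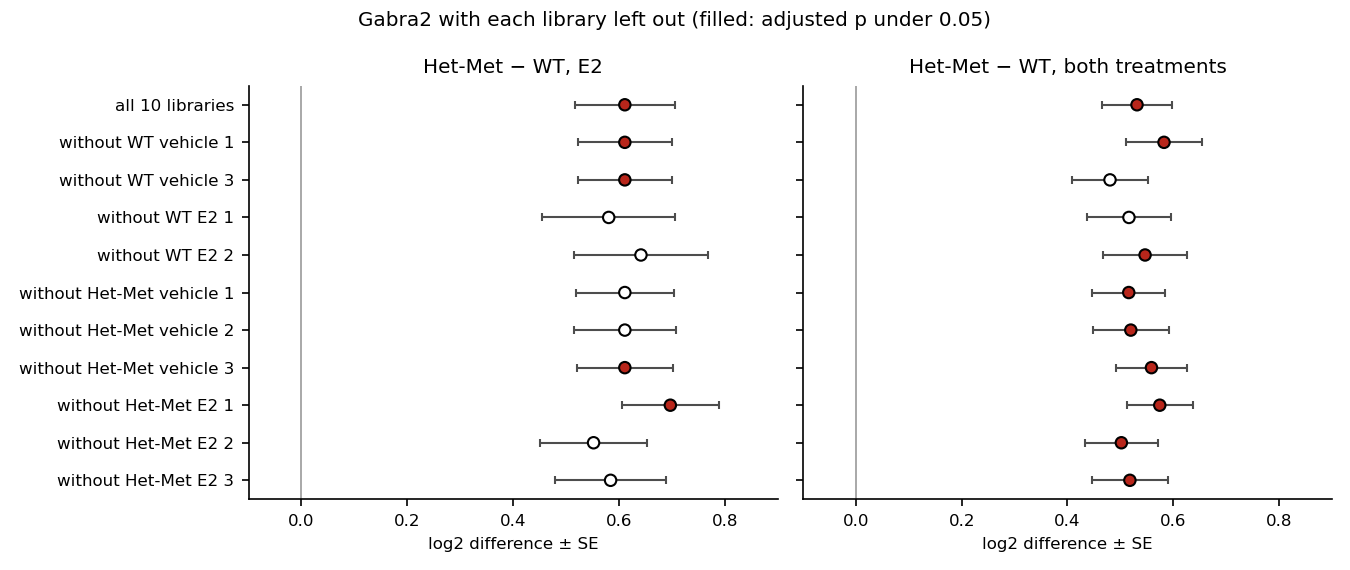
Fitted log2 difference of Gabra2 (Het-Met minus WT) ± SE under E2 (left) and over both treatments (right), with all 10 libraries and with each left out in turn, filled where the adjusted p-value was under 0.05. Differences under E2 lie between 0.55 and 0.70 and those over both treatments between 0.48 and 0.58, all above 0.

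Levels of other cell markers were set beside Gabra2. The 14 choroid plexus markers were all higher in OVX Het-Met mice under vehicle and all lower under E2 (median log2 differences 1.32 and -1.50, none called). When the summed choroid plexus markers entered the fit as a covariate (chosen after seeing the data), Gabra2 differed over both treatments by 0.53 (adjusted p = 9.94e-04, limma). With it Gabra2 differed under vehicle by 0.65 (adjusted p = 0.163, limma) and under E2 by 0.41 (adjusted p = 0.997, limma), so that the call under E2 was lost. Over both treatments these markers differed by a median of -0.03, so the covariate had little room to move that comparison. Within each treatment the markers differed along with genotype, so the fit cannot tell them apart. The part of choroid plexus in the level of Gabra2 was not tested. Microglia markers summed to 376 to 396 CPM in OVX WT and 384 to 438 CPM in OVX Het-Met libraries, with 7 of 8 higher in OVX Het-Met mice over both treatments (none called), and CA3 and CA2 markers to 768 to 803 and 778 to 876 CPM, with 4 of 9 higher and 5 lower over both treatments (none called). The part of microglia or of CA3 and CA2 cells in the level of Gabra2 was not tested.

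The other α subunit genes did not separate by genotype. Gabra3, which encodes α3, was at 126 and 134 CPM in vehicle-treated and 132 and 137 CPM in E2-treated OVX WT libraries. It was at 142, 138 and 100.04 CPM in vehicle-treated and 119, 129 and 156 CPM in E2-treated OVX Het-Met libraries, so that the Het-Met libraries spread on both sides of the WT ones. The genotype difference over both treatments was -0.03 on the log2 scale (SE 0.09, interval -0.23 to 0.17). Its lowest library, vehicle-treated Het-Met replicate 3, was also the one with the highest summed level of dentate gyrus granule cell markers (432 CPM, against 269 to 324 CPM in the other 9) and of CA3 and CA2 markers (876 CPM, against 768 to 852 CPM), and the part of this in the result was not tested.

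Gabra4, which encodes α4, was the steadiest after Gabra5. It had 99.7 and 119.6 CPM in vehicle-treated and 111 and 116 CPM in E2-treated OVX WT libraries, and 117, 111 and 116 CPM in vehicle-treated and 113, 129 and 124 CPM in E2-treated OVX Het-Met libraries. The genotype difference over both treatments was 0.08 (SE 0.06, interval -0.04 to 0.21 on the log2 scale), an interval that ended below the start of that of Gabra2. Gabra5, which encodes α5, had 200.2 and 207 CPM in vehicle-treated and 195 and 221 CPM in E2-treated OVX WT libraries. In OVX Het-Met libraries it had 231, 206 and 213 CPM under vehicle and 209.98, 222 and 199.8 CPM under E2. Of these, 231 and 222 CPM lay above the highest WT library, and none lay below the lowest. Its genotype difference over both treatments was 0.05 (SE 0.05, interval -0.06 to 0.17).

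The β subunit genes were lower in OVX Het-Met mice in the fit without being called. Gabrb1, which encodes β1, had 19.3 and 28.3 CPM in vehicle-treated and 24.5 and 24.1 CPM in E2-treated OVX WT libraries. It had 14.9, 22.1 and 19.1 CPM in vehicle-treated and 19.9, 15.5 and 19.2 CPM in E2-treated OVX Het-Met libraries. Under E2 the genotypes did not overlap (35.8% of all genes did not), and under vehicle they did. The log2 difference was -0.37 over both treatments (SE 0.12, interval -0.63 to -0.12, unadjusted p = 0.00687, adjusted p = 0.162, limma) and -0.42 under E2 (SE 0.17, unadjusted p = 0.0264, adjusted p = 0.381, limma). DESeq2 on the recovered reads gave -0.41 over both treatments with an adjusted p of 0.0466, and this was the only setting under which a member other than Gabra2 passed after adjustment. The share of all genes that DESeq2 called is not given here. Without vehicle-treated WT replicate 3 the difference was -0.24, and without replicate 1 it was -0.51. That replicate 3 held the highest Gabrb1 and also the highest summed astrocyte markers (6110 CPM), and vehicle-treated Het-Met replicate 1 held the lowest of both (4709 CPM of astrocyte markers). Astrocyte markers ranged from 4828 to 6110 CPM in OVX WT and from 4709 to 5713 CPM in OVX Het-Met libraries, and their part in the level of Gabrb1 was not tested.

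Gabrb2, which encodes β2, had 286 and 347 CPM in vehicle-treated and 309 and 327 CPM in E2-treated OVX WT libraries. It had 267, 281 and 263 CPM in vehicle-treated and 285, 314 and 319 CPM in E2-treated OVX Het-Met libraries. The vehicle-treated OVX Het-Met libraries were the 3 lowest of the 10. Under vehicle the genotypes did not overlap in 24.7% of all genes. Against vehicle-treated OVX WT mice the log2 difference was -0.22 (SE 0.08, unadjusted p = 0.0174, adjusted p = 0.416, limma), and it was -0.08 without replicate 3 of that WT group and -0.36 without replicate 1. Under E2 the genotypes overlapped, with a difference of -0.06 (SE 0.08, interval -0.23 to 0.12).

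Gabrd, which encodes the δ subunit, had 23.7 and 18.9 CPM in vehicle-treated and 21.0 and 19.9 CPM in E2-treated OVX WT libraries. It had 21.7, 18.7 and 27.6 CPM in vehicle-treated and 23.8, 25.5 and 26.4 CPM in E2-treated OVX Het-Met libraries. Under E2 the 3 Het-Met libraries were above both WT libraries, where 35.8% of all genes did not overlap in either direction. The log2 difference was 0.30 (SE 0.14, interval 0.00266 to 0.60, unadjusted p = 0.0482, adjusted p = 0.425, limma). Under vehicle the genotypes overlapped (0.08, SE 0.14, interval -0.22 to 0.38). Gabrd is also expressed in the thalamus, and the summed thalamus markers under E2 were 172 to 179 CPM in OVX WT and 174 to 227 CPM in OVX Het-Met libraries, with 9 of the 10 markers higher in OVX Het-Met mice (median log2 difference 0.29, none called). Vehicle-treated Het-Met replicate 3 had the highest Gabrd and the highest summed dentate gyrus granule cell (432 CPM) and CA3 and CA2 markers (876 CPM). Under E2 the dentate sums were 310 to 314 CPM in OVX WT and 289 to 324 CPM in OVX Het-Met libraries. Those of CA3 and CA2 were 768 to 770 CPM and 778 to 852 CPM. The part of thalamic, dentate, or CA3 and CA2 tissue in the level of Gabrd was not tested.

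**Figure D4:**
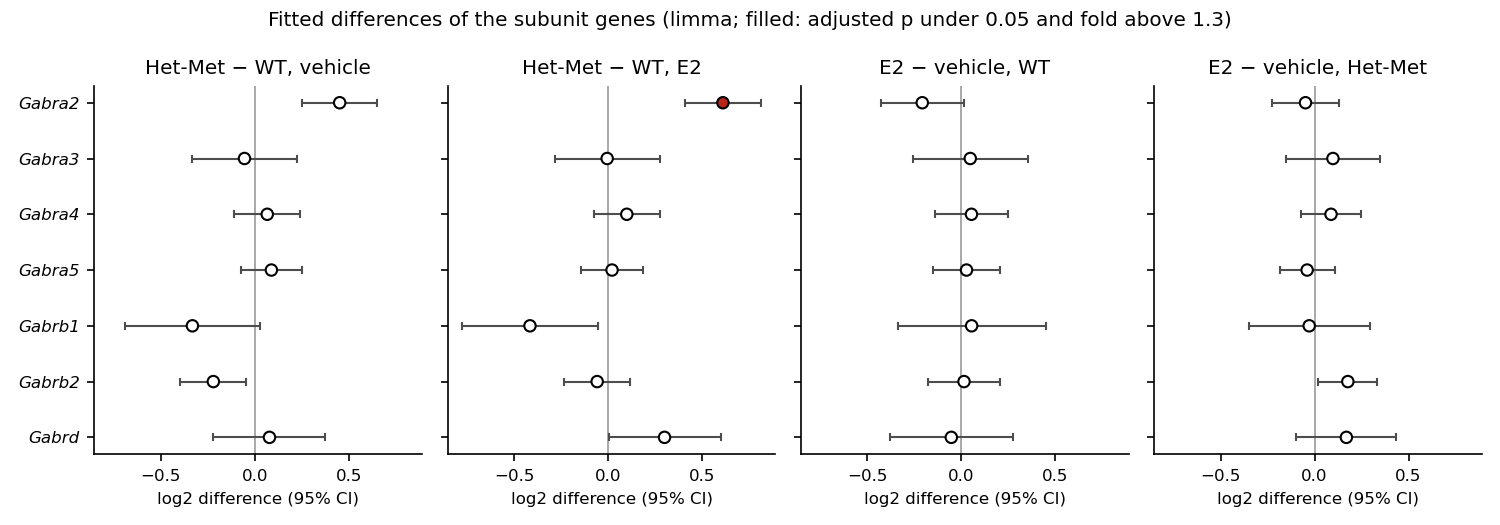
Fitted log2 differences of the 7 subunit genes with 95% intervals, for Het-Met minus WT under vehicle and under E2 and for E2 minus vehicle in each genotype, filled where the gene was called. Gabra2 under E2 (0.61, interval 0.41 to 0.81) is the only filled point, and the intervals of all 7 genes include 0 for E2 in WT mice.

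E2 add-back was compared with vehicle within each genotype. In OVX WT mice 0 of the 7 genes were called, where 0.0133% of all genes were (limma), and 0 had an unadjusted p under 0.05 (4.04% of all genes). Both E2-treated libraries had less Gabra2 than both vehicle-treated ones, and the log2 difference was -0.21 (SE 0.10, interval -0.43 to 0.01, adjusted p = 0.9999, limma). Groups of 2 against 2 do not overlap in 31.8% of all genes. The other 6 genes differed by -0.05 to 0.06 in OVX WT mice, and the smallest unadjusted p among them was 0.560.

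E2 called 0 of the 7 genes in the Het-Met genotype by limma (0.00% of all genes), and 0 by DESeq2 or edgeR on the recovered reads (shares of all genes not given). By limma 1 had an unadjusted p under 0.05 (5.45% of all genes). That gene was Gabrb2, whose 3 E2-treated libraries were above the 3 vehicle-treated ones, a log2 difference of 0.18 (SE 0.07, interval 0.02 to 0.33, unadjusted p = 0.0297, adjusted p = 0.872, limma). Groups of 3 against 3 do not overlap in 10.3% of all genes. Gabra2 differed by -0.05 (SE 0.08, interval -0.23 to 0.13). The response to E2 did not pass as different between genotypes for any of the 7 genes, with interactions from -0.08 to 0.22 and 0 unadjusted p under 0.05 (5.42% of all genes, and 0.0729% called, limma). For E2 over both genotypes 0 of the 7 genes were called (0.00663% of all genes) and 0 had an unadjusted p under 0.05 (3.22% of all genes), with Gabra2 at -0.13 (SE 0.07, interval -0.27 to 0.01).

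Counted over the members, unadjusted p-values under 0.05 for genotype numbered 2 under vehicle (10.7% of all genes), 3 under E2 (11.7%) and 3 over both treatments (16.6%). Over both treatments 4 of the 7 genes were higher and 3 lower in the Het-Met genotype, with a median log2 difference of 0.05 beside 0.02 for all genes tested. The libraries of the genotypes did not overlap for 2 of the 7 under vehicle, Gabra2 and Gabrb2 (24.7% of all genes), and for 3 under E2, Gabra2, Gabrb1 and Gabrd (35.8% of all genes). The comparisons within treatments and over both treatments use the same libraries.

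Gabra2 was then set against the mean of the other 6 subunit genes in the same library, which takes out whatever scaled all 7 genes alike. On the log2(CPM + 0.5) scale this difference was -0.11 and -0.47 in vehicle-treated and -0.53 and -0.52 in E2-treated OVX WT libraries. It was 0.29, 0.26 and 0.12 in vehicle-treated and -0.02, 0.22 and 0.09 in E2-treated OVX Het-Met libraries, so the genotypes did not overlap. The mean of the other 6 genes was 6.39 to 6.54 in OVX WT and 6.40 to 6.54 in OVX Het-Met libraries. The genotypes were already apart in Gabra2 alone, so this is not a separate result. The share of all genes apart on this measure is not given here. No test was made of this difference, since the genes were chosen with earlier results known.

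Taken gene by gene, the ratio of Gabra2 to Gabra5 (in CPM) was 0.287 to 0.385 in OVX WT and 0.402 to 0.494 in OVX Het-Met libraries. The ratio to Gabra3 was 0.461 to 0.610 and 0.631 to 0.911, and the ratio to Gabrb2 was 0.193 to 0.269 and 0.296 to 0.384. The genotypes were also apart in the ratio to Gabrb1, at 2.36 to 3.99 and 4.24 to 6.87. They overlapped in the ratio to Gabra4, at 0.547 to 0.772 and 0.747 to 0.918, and in the ratio to Gabrd. Gabra2 was itself apart between genotypes and enters every ratio and the share that follows, so these separations are not further results. The share of gene pairs apart in this way is not given here. In the summed level per kb of the 6 α subunit genes of the table, Gabra2 made up 4.34% to 5.73% in OVX WT and 6.13% to 7.23% in OVX Het-Met libraries, while Gabra5 made up 37.2% to 38.9% and 35.3% to 42.1% and Gabra3 18.3% to 19.2% and 15.0% to 21.0%.

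No neighbour of Gabra2 was called between genotypes by limma, and DESeq2 on the recovered reads called Gabrb1 over both treatments (adjusted p = 0.0466, share of all genes not given). Gabrg1 lies 115 kb from Gabra2, on chr5:70751047-70842617, Gabra4 474 kb and Gabrb1 562 kb away, and they are the genes tested within 1 Mb. Over both treatments Gabrg1 (19.0 to 27.7 CPM) differed by -0.08 (SE 0.10, interval -0.29 to 0.13), Gabra4 by 0.08 and Gabrb1 by -0.37. The intervals of all 3 lay below that of Gabra2.

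Of the 12 other GABA-A subunit genes in the table, 7 were tested and 5 were too low. None was called in any of the 7 comparisons, which called 0.00% to 0.0729% of all genes (limma). Unadjusted p-values under 0.05 numbered 1 for E2 in OVX Het-Met mice (5.45% of all genes), 1 for genotype under vehicle (10.7%) and 2 for genotype under E2 (11.7%). The latter were the γ3 gene Gabrg3 (log2 difference -0.58, SE 0.25, adjusted p = 0.387, limma) and the ρ2 gene Gabrr2 (0.54, SE 0.24, adjusted p = 0.420, limma), both low in this tissue at 1.99 to 4.49 and 0.430 to 1.19 CPM. The θ gene Gabrq was at 0.979 to 4.13 CPM and differed by -0.07 over both treatments (SE 0.23).

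The wider GABA pathway held no called gene between genotypes over both treatments (limma, 0.0265% of all genes). Of 9 genes of GABA synthesis, packaging, uptake and breakdown, 2 were higher and 7 lower in the fit, with 1 unadjusted p under 0.05 (16.6% of all genes; median log2 difference -0.06). The smallest p was that of Abat, the GABA transaminase that breaks GABA down (276 to 371 CPM, -0.16, SE 0.06, adjusted p = 0.206, limma), followed by Slc32a1, the vesicular GABA transporter (-0.11, SE 0.06, adjusted p = 0.359, limma). Of 6 genes of GABA-B receptors and their auxiliary subunits, 2 were higher and 4 lower (median -0.03), with the auxiliary subunit gene Kctd16 at -0.41 (SE 0.12, adjusted p = 0.144, limma) and the receptor subunit gene Gabbr2 at -0.25 (SE 0.10, adjusted p = 0.208, limma).

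Of 21 genes of GABA-A receptor assembly, anchoring and trafficking, 8 were higher and 13 lower (median -0.02), with 5 unadjusted p under 0.05 beside 16.6% of all genes. Slitrk3, an adhesion protein of inhibitory synapses, was at 97.9 to 105 CPM in OVX WT and 79.8 to 92.2 CPM in OVX Het-Met libraries. The genotypes did not overlap for it, where 4.36% of all genes had no overlap, and its difference of -0.22 did not pass (SE 0.06, adjusted p = 0.126, limma). Gabarapl2, of the family of GABA-A receptor-associated proteins, differed by 0.27 (SE 0.08, adjusted p = 0.162, limma). Of 10 genes of chloride transport and carbonic anhydrase, 2 were higher and 8 lower (median -0.07), with 4 unadjusted p under 0.05 beside the same 16.6%. The kinases Wnk1 and Wnk3, which regulate chloride cotransporters, differed by -0.18 and -0.20 (adjusted p = 0.146 and 0.149, limma). Of 6 neurosteroid synthesis genes tested, 4 were higher and 2 lower (median 0.06), with Srd5a1, a steroid 5α-reductase, at 0.32 (SE 0.12, adjusted p = 0.217, limma) and Star, which moves cholesterol into mitochondria, at 0.09 (SE 0.09, adjusted p = 0.614, limma).

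The genes whose log2(CPM + 0.5) most resembled that of Gabra2 over the 10 libraries, among 15080 others, were Tprkb (Pearson r = 0.964), Alg6 (0.948), Mrpl41 (0.944), Uchl1 (0.943) and Rnasek (0.942). They lie on chromosomes 6, 4, 2, 5 and 11 in that order, so that Uchl1 shares the chromosome of Gabra2, and a part of position was not tested. Tprkb was at 78.0 to 85.0 CPM in OVX WT and 88.5 to 96.1 CPM in OVX Het-Met libraries, and Uchl1, an abundant neuronal deubiquitinase, at 447 to 487 and 496 to 586 CPM. The most opposite were Spry4 (r = -0.963), Sntb2 (-0.948) and Hipk1 (-0.926), with Spry4 at 16.1 to 19.7 CPM in OVX WT and 12.3 to 15.1 CPM in OVX Het-Met libraries. These values are a description. The libraries fall into the 2 genotypes, which Gabra2 separates, and they share their depth and dissection with every gene, so no p-value is given.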

How the data were processed

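RNA-seq was analysed in 10 vHpc libraries grouped by genotype and treatment from the labels. Per the labels and methods, the authors prepared stranded libraries, trimmed and filtered the reads and aligned them to mm10 with TopHat2. The authors deposited CPM per gene, and 100% of values in every library equalled a whole number of reads (tolerance 0.01 read), so reads were recovered. Depth was 19820184 to 23267410 reads, with a floor of 3 reads at 0.129 to 0.151 CPM, and such limits cover counting error only.

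The members and gene lists were chosen with earlier results of these data known. R 4.3.3 with limma 3.58.1 fitted log2(CPM + 0.5) of genes averaging 0.5 CPM or more as 4 group means with an intensity trend, two-sided, with Benjamini-Hochberg adjustment (residual degrees of freedom 6, prior degrees of freedom 8.90). This scale understates the fold of low genes. The methods name DESeq, and as alternatives edgeR 4.0.16 and DESeq2 1.42.0 were run on recovered reads, beside other pseudocounts, filters and scalings, no trend, a replicate block and each library left out in turn. Lengths and positions came from GENCODE vM21 (GRCm38, also called mm10), where of 24421 symbols 23384 matched as given, 645 through a synonym and 392 remained unmatched. Named genes were the 7 members, other subunit genes, in each pathway list the called genes or else the 2 with the smallest p over both treatments, tested genes within 1 Mb of Gabra2, and the 5 most and 3 least correlated with it. Some subunit genes are counted and not reported by name here. Figures used python 3.11.15 and matplotlib 3.10.9.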

Additional observations from a re-analysis of the deposited data

How the results depend on the processing

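Gabra2 was higher in OVX Het-Met mice over both treatments and under each treatment in every alternative run. Over both treatments its call was lost without the filter on low values (0.53, adjusted p = 0.0541, limma) and without the intensity trend (0.53, adjusted p = 0.158), with 0 members called in each. Under E2 it was lost without the filter (0.61, adjusted p = 0.232), with quantile normalization (0.59, adjusted p = 0.0544), without the trend (0.61, adjusted p = 0.266), with the replicate block (0.64, adjusted p = 0.0601) and with the choroid plexus covariate added after seeing the data (0.41, adjusted p = 0.997), with 0 members called in each. DESeq2 on recovered reads called Gabra2 under vehicle (0.43, adjusted p = 0.0175), and Gabra2 and Gabrb1 over both treatments. The share of all genes that DESeq2 called is not given here, so these calls have no background beside them. At an unadjusted p under 0.05 and a fold above 1.3, 1 member passed under vehicle and 2 under E2. The share of all genes passing both limits is not given here, and 10.7% and 11.7% of all genes passed the p limit alone (limma). With the choroid plexus covariate, Gabra2 turned to 0.049 for E2 in WT and to -0.24 for the interaction. The causes were not tested. Leaving out each library in turn kept Gabra2 between 0.48 and 0.58 over both treatments (adjusted p 0.00177 to 0.0797) and between 0.55 and 0.70 under E2 (adjusted p 0.00983 to 0.698), with 0 to 1 members called in each, and between 0.35 and 0.55 under vehicle, while for E2 in Het-Met mice it lay between -0.11 and 0.038. Whether the replicate numbers pair the libraries could not be settled. The 12 pairs with the same number had deviations correlated between -0.17 and 0.08, and the 25 pairs with other numbers between -0.15 and 0.17. In a group of 2 libraries the deviations mirror each other, so these correlations are not independent. The replicate block is therefore given as an alternative. It left the call of Gabra2 over both treatments (adjusted p = 0.0143).

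For the other 6 members, 60 of 948 alternative values changed sign, in 23 of 42 results, none of which was called (largest main log2 difference 0.22). Gabra5 under E2 was -0.00272 with median-of-ratios scaling, -0.00188 with TMM, -0.00109 with edgeR and -0.00395 with DESeq2, and Gabrb1 for E2 over both genotypes was -0.00517 with edgeR and -0.00483 with DESeq2. The replicate block gave -0.00649 for Gabra5 and 0.043 for Gabrd for E2 in WT, and 0.00846 for Gabra3 between genotypes under E2. The choroid plexus covariate gave, for E2 in WT, -0.00704 for Gabra5, -0.21 for Gabrb1, -0.00300 for Gabrb2 and 0.11 for Gabrd. It gave 0.12 for Gabrb1 for E2 in Het-Met mice, 0.062 for Gabra3 between genotypes under vehicle, -0.043 for Gabrb1 for E2 over both genotypes, and interactions of -0.19 for Gabra3, 0.33 for Gabrb1 and -0.040 for Gabrd. Leaving out each library in turn placed, for E2 in WT mice Gabra4 between -0.076 and 0.18, Gabra5 between -0.063 and 0.12, Gabrb1 between -0.22 and 0.33, Gabrb2 between -0.12 and 0.15 and Gabrd between -0.21 and 0.11. For E2 in Het-Met mice it placed Gabra3 between -0.063 and 0.19, Gabra5 between -0.078 and 0.00814 and Gabrb1 between -0.18 and 0.098. Between genotypes under vehicle it placed Gabra3 between -0.15 and 0.11, Gabra4 between -0.064 and 0.20 and Gabrd between -0.080 and 0.24. Between genotypes under E2 it placed Gabra3 between -0.12 and 0.080 and Gabra5 between -0.070 and 0.11. For the interaction it placed Gabra3 between -0.11 and 0.14, Gabra4 between -0.097 and 0.16, Gabra5 between -0.16 and 0.024 and Gabrb1 between -0.35 and 0.19. Between genotypes over both treatments it placed Gabra3 between -0.085 and 0.051. For E2 over both genotypes it placed Gabra3 between -0.00751 and 0.12, Gabra5 between -0.051 and 0.040, Gabrb1 between -0.12 and 0.15 and Gabrd between -0.021 and 0.14. All 7 genes had at least 315 reads in every library.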
